A study of Mus musculus with 2 samples.

Results

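The 10 genes described here belong to the bone morphogenetic protein (BMP) pathway and were followed in Hi-C contact lists from hair matrix keratinocytes. They are the ligand genes Bmp2, Bmp4 and Bmp7, the type I receptor gene Bmpr1a, the target genes Id1, Id2 and Id3, and the SMAD genes Smad1, Smad6 and Smad7. They make up 10 of 21887 protein-coding genes on the chromosomes of the RefSeq table for GRCm38. Hi-C reads which stretches of the genome touch in fixed nuclei by joining and sequencing their ends. Each deposited list holds pixels, pairs of 5 kb bins whose contacts exceeded the local expectation. A pixel was counted for a gene where 1 of its anchor bins lay within 10 kb of either annotated end of the gene. In all, 13 of 4872 pixels in the DKO list and 13 of 5811 in the WT list met this rule.

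The DKO library is labelled as a double knockout of Tet2 and Tet3 with Krt14-Cre, and the WT library as wild type, with no word on whether animals were pooled. Both were primary hair matrix keratinocytes, the dividing epithelial cells of the hair bulb, from animals at postnatal day 4.5, and each genotype had 1 library. TET2 and TET3 oxidise the methyl group of 5-methylcytosine in DNA, and the Krt14 promoter drives Cre in the basal layer of skin epithelium, from which the matrix descends. There were no replicates, so no value has a replicate error, no difference was tested, and a difference between the lists cannot be assigned to genotype.

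BMP ligands bind paired type I and type II serine/threonine kinase receptors, and the activated type I receptor phosphorylates SMAD1, SMAD5 and SMAD9, which enter the nucleus with SMAD4. Id1, Id2 and Id3 are direct targets whose products bind basic helix-loop-helix factors and block their binding to DNA. SMAD6 and SMAD7 are inhibitory SMADs, induced by the pathway and acting back on it. In the hair follicle, signalling through BMPR1A is needed for matrix cells to differentiate into hair shaft and inner root sheath, and BMPs from the surrounding dermis hold stem cells quiet.

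Id1, Id3 and Smad6 carried the contacts that both lists held, while a ligand and the receptor gene each had contacts in a single list. Bmpr1a had a pixel in the DKO list alone and Bmp2 in the WT list alone. Bmp4, Bmp7, Id2, Smad1 and Smad7 had none in either. That made 4 of 10 genes in the DKO list and 4 of 10 in the WT list, where 20.1% and 21.2% of all protein-coding genes had a pixel under the same rule. For genes in both lists the numbers were 3 of 10 and 12.9% of all genes, for the DKO list alone 1 of 10 and 7.14%, and for the WT list alone 1 of 10 and 8.24%. Counts this small, in genes chosen with earlier results known, set nothing apart.

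**Figure D1:**
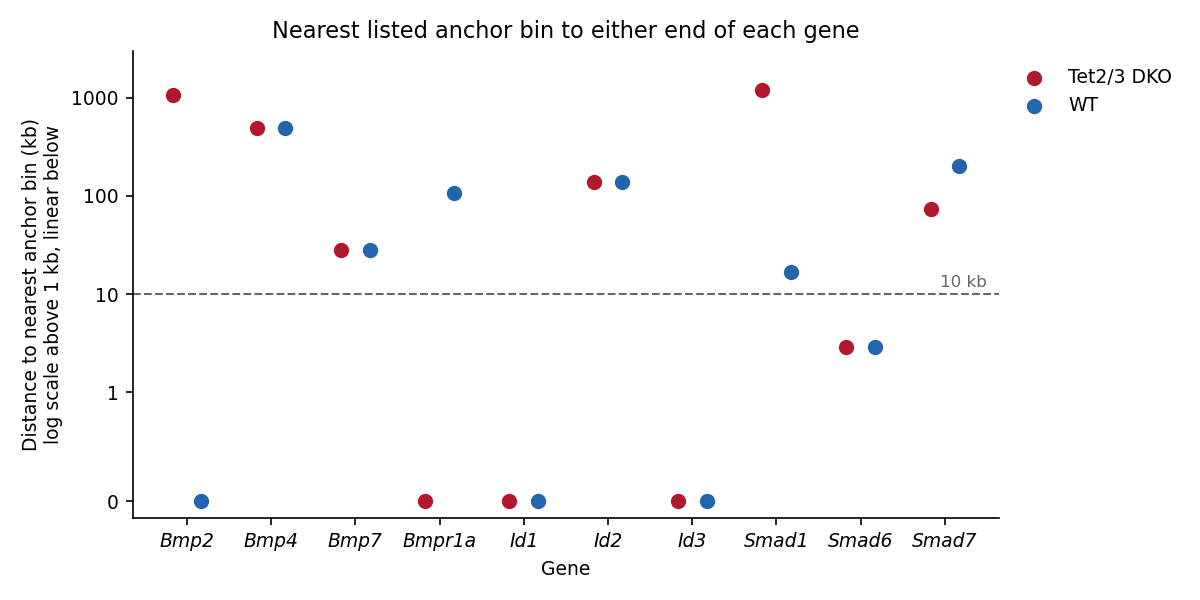
Distance in kb from either end of each gene to the nearest anchor bin of any listed pixel, on an axis that is logarithmic above 1 kb and linear below, with a point per library (DKO left, WT right) and the 10 kb rule dashed. Id1, Id3 and Smad6 lie under the line in both lists, Bmpr1a in the DKO list alone and Bmp2 in the WT list alone.

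The bins nearest to the 10 kb limit on either side were those at Id3. The farthest bins inside the rule lay 9.61 kb from Id3, and the nearest bins outside it 14.6 kb from the same gene in both lists. Among genes without a pixel, Smad1 came nearest, with a WT bin 16.6 kb away and the nearest DKO bin 1203 kb away. Bmp7 followed at 28.0 kb in both lists. Smad7 lay 74.1 kb from an anchor bin in DKO and 199 kb in WT, and Id2 139 kb from one in both.

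Promoter sequence is shown for Id3 and Smad6, which have an anchor bin near the start in both lists and an entry in the RefSeq promoter table of GRCm38.p6, so that the DNA beside these contacts can be read. Of the 10 genes, 6 matched that table. The Id3 stretch (chr4:136143572-136143821, plus strand) leads to a start 1.18 kb from the nearest anchor bin in both lists, and the Smad6 stretch (chr9:64022086-64022309, minus strand) to a start 2.94 kb from it in both. Each runs 5′ to 3′ towards the start. Capitals mark matches on either strand to GGCGCC or GGAGCC, the GC-rich letters bound by SMAD1 and SMAD5.
Id3: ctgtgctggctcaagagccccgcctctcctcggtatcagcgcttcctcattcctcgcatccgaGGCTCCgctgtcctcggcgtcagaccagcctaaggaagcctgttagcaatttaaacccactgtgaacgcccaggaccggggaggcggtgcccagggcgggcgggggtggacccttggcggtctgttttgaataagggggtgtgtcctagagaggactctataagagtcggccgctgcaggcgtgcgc
Smad6: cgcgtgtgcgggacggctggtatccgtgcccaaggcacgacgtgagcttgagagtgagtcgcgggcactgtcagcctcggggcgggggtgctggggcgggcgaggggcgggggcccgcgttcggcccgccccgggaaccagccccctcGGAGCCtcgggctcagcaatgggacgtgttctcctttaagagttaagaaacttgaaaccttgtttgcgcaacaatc

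Both printed stretches held 1 such match, and the Smad6 window of 250 bases had 1 more in the 26 bases left out here because they fall inside the annotated gene. The window of Bmpr1a, whose start lay inside the DKO anchor bin, also held 1 match and falls wholly inside the annotated gene. GGCGCC or GGAGCC occurred in 31.7% of 32851 promoter windows of 250 bases, so a match is common. The motif of 5 letters CCCTC, part of the CTCF consensus, occurred 7 times in the Bmpr1a window, 0 times in that of Id3 and 2 times in that of Smad6, and in 60.5% of all windows. GTCTG, a core SMAD element, was found 2 times at Id3 and not in the windows of Bmpr1a and Smad6, against 42.2% of all windows. The full SMAD element GTCTAGAC was in none of these 3 windows and in 0.167% of all windows, and the E-box CANNTG was in none of them and in 66.2% of all. All motifs were searched on both strands, and matches may overlap. GC content was 78.8% in the Bmpr1a window, 62.8% in that of Id3 and 66.5% in the printed Smad6 stretch, against a median of 52.4%.

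Among the ligands, Bmp2 (chromosome 2, 133552159 to 133562896) had 0 pixels in the DKO list and 2 in the WT list. Both WT pixels started from the bin 133550001 to 133555000, which holds the lower-coordinate end of the gene, and ran towards higher coordinates. The shorter reached 133725001 to 133730000 over 175 kb, with 15 observed contacts at 4.97 times the expected count (95% interval 2.78 to 8.20). The expected count is the caller's donut value, taken from the ring of pixels around the pixel, and each exact 95% interval covers counting error only. The longer reached 134015001 to 134020000 over 465 kb, with 13 contacts at 6.73 times expected (3.58 to 11.5). Neither partner bin had a protein-coding gene end within 10 kb or any annotated gene over it. Bmp2 encodes a secreted ligand, and these were the longest contacts with an anchor within 10 kb of any of the 10 genes.

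In the DKO list the nearest anchor bin to Bmp2 lay 1062 kb away, so no DKO pixel had an anchor within 500 kb of the gene, against 2 in the WT list, the pair just described. The lists state nothing of pixels that missed the cut-off. Pixels were grouped by the caller's classes of donut expected count. For the classes of these pixels the lowest DKO counts listed were 12 and 11 contacts, and the WT pixels had 15 and 13. A listed pixel passed against 4 expected counts, so its donut class alone does not place it against the cut-off. The largest of the 4 was 4.74 for the shorter contact, against a donut value of 3.02. The lowest count listed for the donut class of that size was 15 in both lists, the count this contact had. Each pixel carries a false discovery rate (FDR) for each of 4 expected counts, and the largest was 0.0790 for the shorter contact and 0.00325 for the longer.

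Bmp7 (chromosome 2, 172868012 to 172940321), a ligand gene, met no rule at its ends but lay inside contacts listed in both libraries. In each list 5 pixels enclosed the whole gene. The pixel with the most contacts joined 172830001 to 172835000 with 172995001 to 173000000 over 165 kb, where the DKO library had 27 contacts at 7.76 times expected and the WT library 26 contacts at 6.12 times expected. Its upper anchor lay within 10 kb of the ends of Spo11, which makes the DNA breaks of meiosis, and of Rae1, a messenger RNA export factor. The DKO/WT ratio of enrichment was 1.27 (0.712 to 2.26), an interval that held 1. A single WT pixel reached farther, over 255 kb to a bin over Gm40011 and within 10 kb of an end of Ctcfl, a germline paralogue of Ctcf. It had 11 contacts at 7.46 times expected (3.73 to 13.4) and a largest FDR of 0.0836. The lowest count listed for its class of donut expected count was 10 in both lists.

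Bmp4 (chromosome 14, 46383525 to 46390669), the ligand gene of dermal papilla and matrix, lay 489 kb from the nearest anchor bin in both lists, with 1 pixel within 500 kb in each and no pixel enclosing it.

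The receptor gene Bmpr1a (chromosome 14, 34411061 to 34503336) had 1 pixel in the DKO list and 0 in the WT list. BMPR1A is the type I receptor that matrix cells use. The bin 34500001 to 34505000, which holds the upper end of the gene and its start site, met the bin 34545001 to 34550000 over 45 kb. The DKO library had 24 contacts there on an expected 6.63, an enrichment of 3.62 (2.32 to 5.38). The partner bin lay inside Ldb3, which encodes a Z-disc protein of muscle, and no protein-coding gene end was within 10 kb of it. On the gene's own side 9230112D13Rik also had an end within 10 kb.

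The largest FDR of that pixel was 0.0194, and the lowest count listed for its donut class was 19 contacts in both lists. The largest of its 4 expected counts was 8.38. For the donut class of that size the lowest counts listed were 21 in DKO and 22 in WT. No WT pixel lay within 2 bins (10 kb) of it at both anchors, and the nearest WT anchor to Bmpr1a was 107 kb from the gene. Within 500 kb there were 3 pixels in the DKO list and 6 in the WT list.

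**Figure D2:**
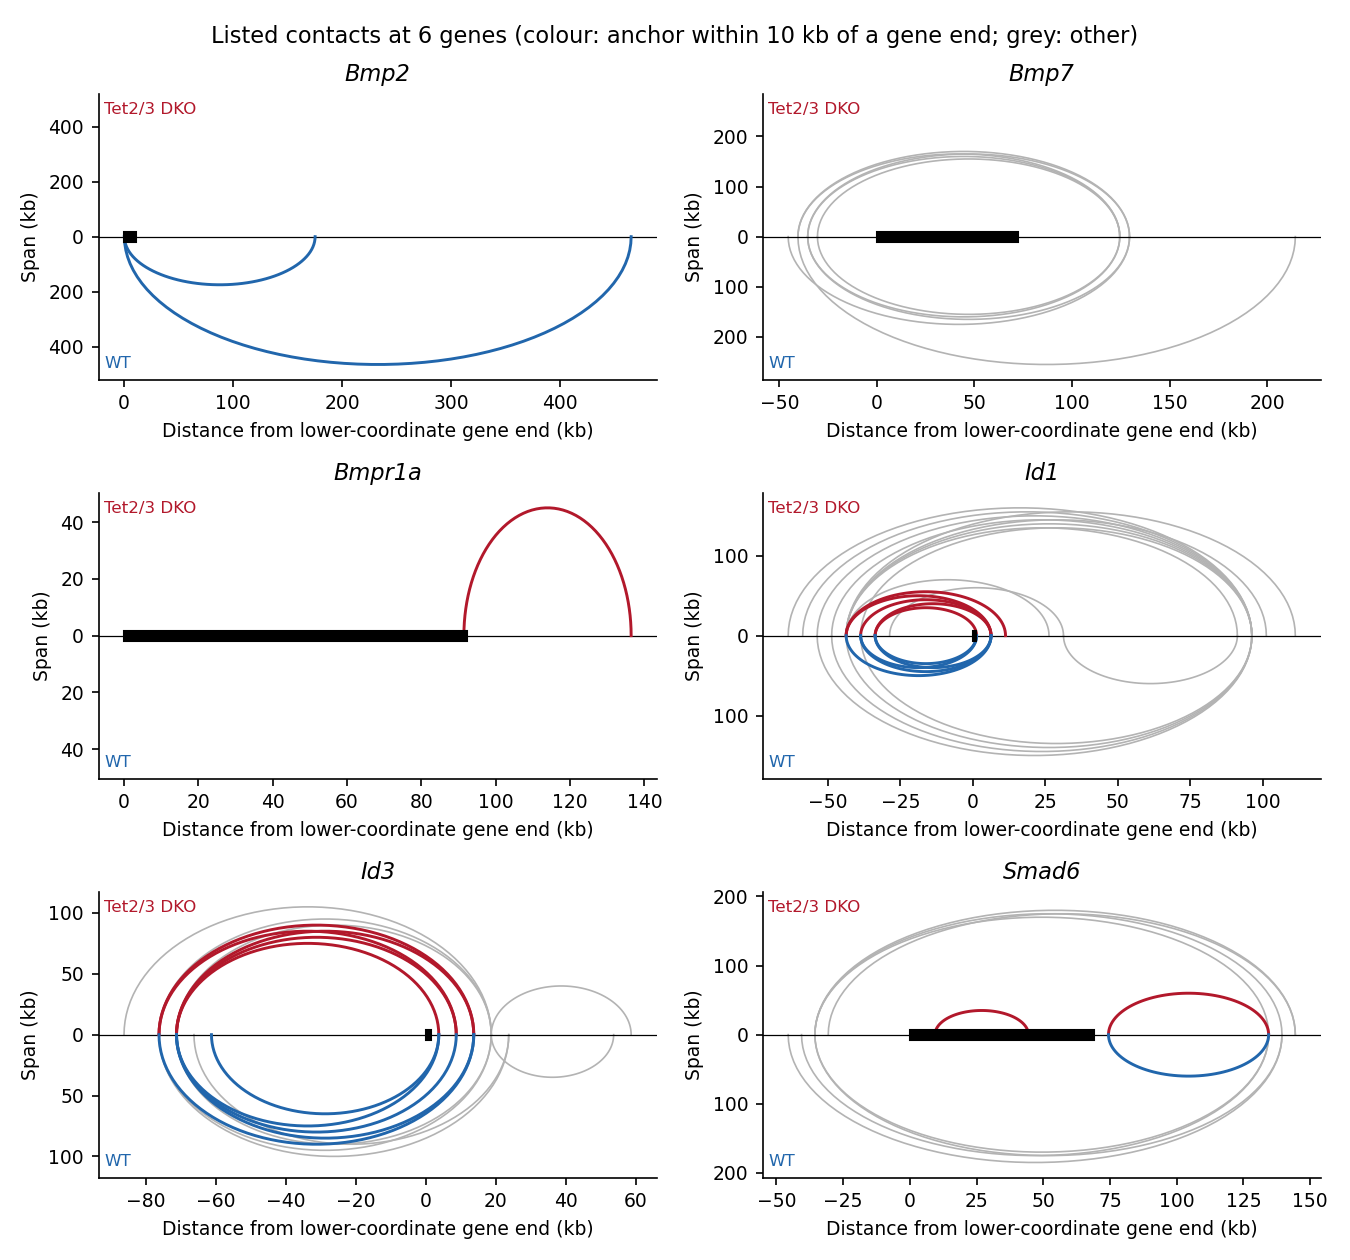
Contacts at 6 genes as arcs, with distance from the lower-coordinate gene end on the x axis and span on the y axis, both in kb, DKO arcs above and WT arcs below the line and the gene as a black box. Coloured arcs have an anchor within 10 kb of a gene end, and grey arcs have one within 30 kb or enclose the gene. The coloured Id1 and Id3 arcs number 5 in each list, the grey Id1 arcs are more numerous in DKO, and Bmp2 has arcs below alone and Bmpr1a above alone.

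Of the target genes, Id1 and Id3 each had 5 pixels in both lists. Id1 (chromosome 2, 152736251 to 152737410) met a stretch of 3 adjoining partner bins, 152690001 to 152705000, over 35 to 55 kb in the DKO list and 35 to 50 kb in the WT list. That stretch lies inside H13, which encodes a signal peptide peptidase, and within 10 kb of an end of H13 or of Mcts2, an imprinted retrogene in an H13 intron. The Id1 side used the bin that holds the gene, 152735001 to 152740000, and the bins that follow it, up to 152750000. Cox4i2, a cytochrome c oxidase subunit gene, also had an end within 10 kb of the bins that follow.

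The Id1 pixel of highest enrichment joined 152695001 to 152700000 with 152740001 to 152745000. It had 32 contacts in the DKO library on an expected 6.26, an enrichment of 5.11 (3.50 to 7.21), and 30 in the WT library on an expected 6.24, an enrichment of 4.80. Its largest FDR was 1.91e-05 in DKO and 2.55e-06 in WT. At the pixel that contains Id1 itself and lies at the 35 kb span, the counts were 25 in DKO and 32 in WT, with enrichments of 2.56 and 2.88. The remaining shared pixels had 30 contacts in DKO and 23 in WT over 50 kb, and 31 in DKO and 29 in WT over 40 kb. Each list had 1 Id1 pixel that the other lacked, over 55 kb in DKO (22 contacts, 3.13 times expected) and over 40 kb in WT (22 contacts, 3.29 times expected), and both had a pixel of the other list within 2 bins. The Id1 counts thus moved in both directions between the libraries, with DKO higher at 3 of 4 shared pixels and lower at 1.

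Around Id1 each list held 1 longer loop of neighbouring pixels, and the lists differed in how many pixels of it they held. These pixels are not separate contacts. In the DKO list 9 pixels that enclose Id1 over 135 to 160 kb joined H13 with the bins near Bcl2l1, the gene of the survival factor BCL-XL, and Tpx2, a spindle gene, against 4 in the WT list. All 4 WT pixels were also in the DKO list. Of the 5 that the DKO list alone held, 4 had a WT pixel within 2 bins. At the shared ones the DKO/WT ratio ran from 0.962 to 1.25. The DKO list also held 2 pixels at 10 to 30 kb from Id1 that reached Cox4i2 and Bcl2l1 over 60 and 70 kb, with 27 and 23 contacts, while the WT list held 1, between bins over Bcl2l1, with 22 contacts.

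Id3 (chromosome 4, 136143822 to 136145392) had pixels over 75 to 90 kb in the DKO list and over 65 to 90 kb in the WT list. The gene's side used the bin with its upper end, 136145001 to 136150000, and the 2 bins that follow it. The partners were bins between 136065001 and 136075000, and in WT also 136080001 to 136085000, all between Id3 and the ribosomal protein gene Rpl11. No protein-coding gene end lay within 10 kb of these partner bins, and no annotated gene lay over them. Id3 lies on the plus strand, so the first of these bins holds the end of the gene and the others lie past it.

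At the Id3 pixel that holds the end of the gene, over 75 kb, the DKO library had 28 contacts and the WT library 23, with enrichments of 4.55 and 3.32. Over 90 kb there were 22 contacts in DKO and 20 in WT, at 6.19 and 5.39 times expected. The order was the other way over 80 kb, with 22 in DKO and 26 in WT, and over 85 kb, with 23 in DKO and 26 in WT. So 2 of 4 shared pixels were higher in DKO. The pixel that the DKO list alone held (85 kb, 22 contacts, 5.13 times expected) and that of the WT list alone (65 kb, 27 contacts, 3.93 times expected) each had a neighbour within 2 bins in the other list.

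The highest counts of this loop lay just outside the rule. The bin 136160001 to 136165000, which lies 14.6 kb from Id3 and within 10 kb of the cell cycle gene E2f2, met 136065001 to 136070000 with 28 contacts in DKO and 29 in WT, at 5.70 and 6.31 times expected. It met 136070001 to 136075000 with 29 contacts in both. Single linkage of neighbouring pixels gave a loop of 8 pixels in DKO and 9 in WT, with its highest count at that bin in both. Within the rule the highest counts were 28 in DKO and 27 in WT, 1 or 2 contacts fewer than outside it.

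Id2 (chromosome 12, 25093799 to 25096092), the remaining target gene, had no pixel. Its nearest anchor bin, 24950001 to 24955000, was the same in both lists at 139 kb, and 5 DKO and 10 WT pixels lay within 500 kb.

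**Figure D3:**
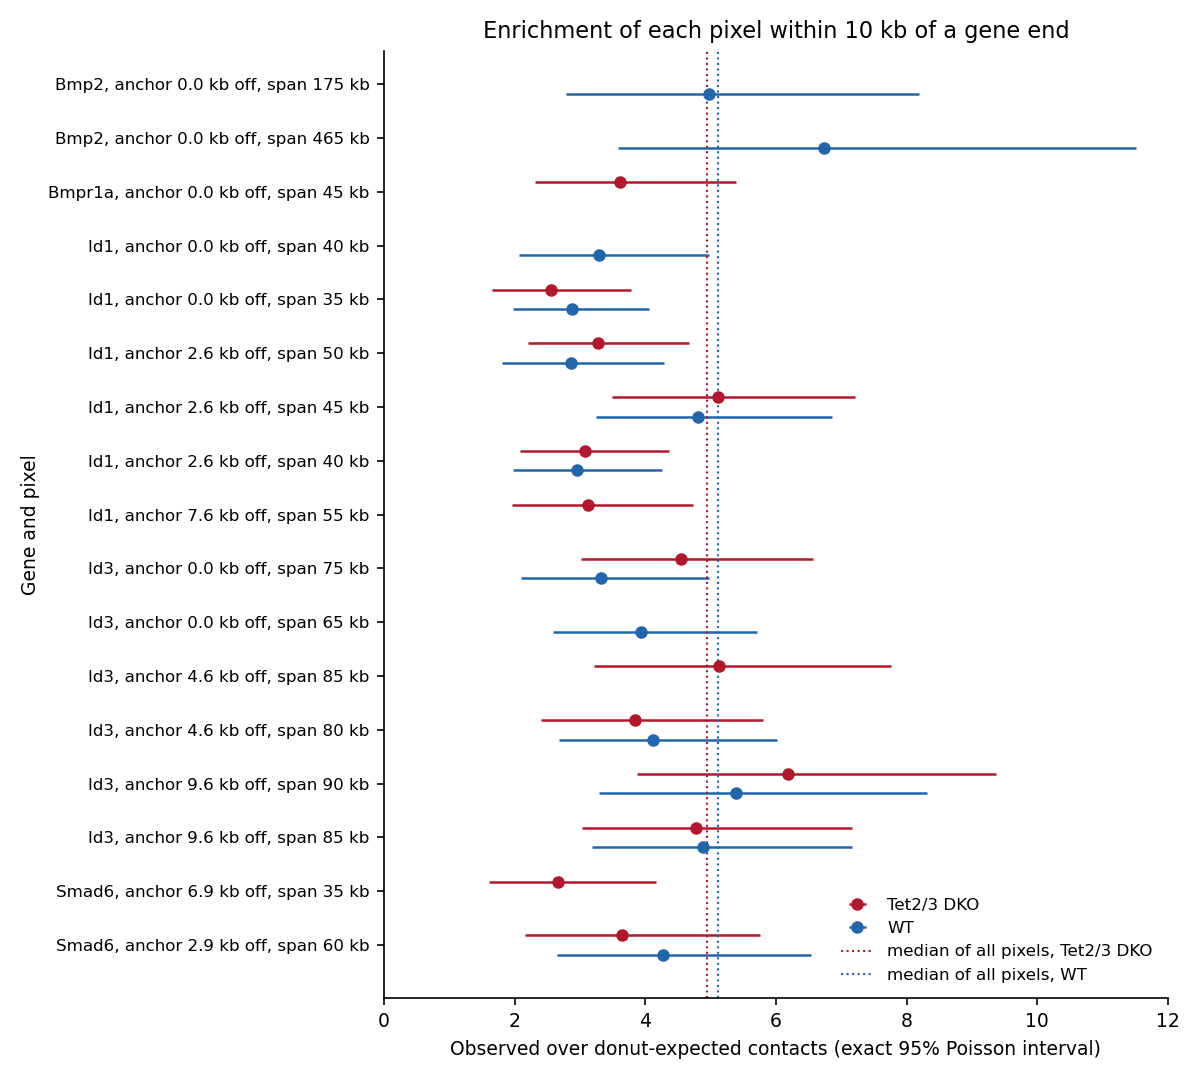
Observed over donut expected contacts on the x axis for each pixel within 10 kb of a gene end, with exact 95% Poisson intervals, DKO above WT, and dotted lines at the median of all pixels of each list. Where both libraries have a pixel the intervals overlap, and 4 Id1 pixels in each list have intervals that end below their list's median. The same holds for the Smad6 pixel over 35 kb in DKO and the Id3 pixel over 75 kb in WT.

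Smad6 (chromosome 9, 63953076 to 64022085), the gene of an inhibitory SMAD that blocks BMP receptors, had 2 pixels in the DKO list and 1 in the WT list. The shared one joined 64025001 to 64030000, just before the start of the gene on the minus strand, with 64085001 to 64090000 over 60 kb. It had 18 contacts in DKO on an expected 4.94, an enrichment of 3.64 (2.16 to 5.76), and 21 in WT on an expected 4.91, an enrichment of 4.28 (2.65 to 6.54). Its partner bin lay over the lncRNA genes Scarletltr and Gm39360, and no protein-coding gene end was within 10 kb.

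The same partner bin also met 63915001 to 63920000, on the far side of Smad6, over 170 kb. That contact enclosed the gene and had more contacts and a higher enrichment, with overlapping intervals. It had 27 contacts at 6.40 times expected in DKO and 26 at 5.15 times expected in WT. Each list held 4 pixels that enclosed Smad6. The other DKO pixel, 63960001 to 63965000 with 63995001 to 64000000 over 35 kb, had both bins inside Smad6. With 19 contacts at 2.67 times expected (1.61 to 4.17) and a largest FDR of 0.0918, it stood at the lowest count listed for its class in either list.

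Smad1 (chromosome 8, 79338395 to 79399428), which encodes a signal-carrying SMAD, had 0 pixels within 500 kb in the DKO list and 5 in the WT list. A WT pixel joined a bin inside the gene, 16.6 kb from its end, with Mmaa, a vitamin B12 metabolism gene, over 65 kb (14 contacts, 3.90 times expected). Another enclosed the gene over 285 kb (15 contacts, 5.65 times expected). Their largest FDRs were 0.0490 and 0.0186, and the lowest counts listed for their donut classes were 13 and 12 in both lists. Pixels this near the cut-off can miss it, so their lack in the DKO list does not show that contact was absent. Smad7 (chromosome 18, 75367365 to 75395935), encoding the other inhibitory SMAD, lay inside 2 WT pixels that joined Dym and Ctif over 455 and 465 kb, with 15 and 12 contacts and largest FDRs of 0.0786 and 0.0800. No DKO pixel enclosed it, although 10 DKO and 8 WT pixels lay within 500 kb.

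Over all pixels at the genes, 9 of the 13 in DKO and 9 of the 13 in WT were the same pixels, or 69.2% of each. In the whole lists 39.8% of DKO pixels and 33.4% of WT pixels were in the other list. Pixels of 1 loop neighbour each other, and 8 of the 9 came from Id1 and Id3, so they are not 9 separate contacts. Counted as loops, each list had 5 at these genes, of 2641 loops in DKO and 2902 in WT. In each list 3 of the 5 had a counterpart, at Id1, Id3 and Smad6. The share of all loops with a counterpart was not computed, so it is not known whether 3 of 5 is usual.

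A ratio was formed only for pixels listed in both libraries, which leaves out those of a single list, as at Bmp2 and Bmpr1a. That choice favours ratios near 1. At the 9 shared pixels the DKO/WT ratio of enrichment had a median of 1.04. It ran from 0.852 at Smad6 (0.428 to 1.68) to 1.37 at Id3 over 75 kb (0.761 to 2.49). The Id1 ratios were 0.891 to 1.14. With the largest of the 4 expected counts in place of the donut value, 6 of the 9 ratios crossed 1. The Id1 ratios then ran from 0.869 to 0.958, all below 1, those of Id3 from 1.02 to 1.19, all above 1, and that of Smad6 was 1.02, so no direction is given for any of the 3 genes. Over all 1940 shared pixels the median was 0.983, with quartiles of 0.841 and 1.15. Of the 9 intervals 0 left out a ratio of 1. They allow for counting error alone, and each held ratios from at least 0.761 to 1.55, so differences of that size were not detectable at this depth.

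**Figure D4:**
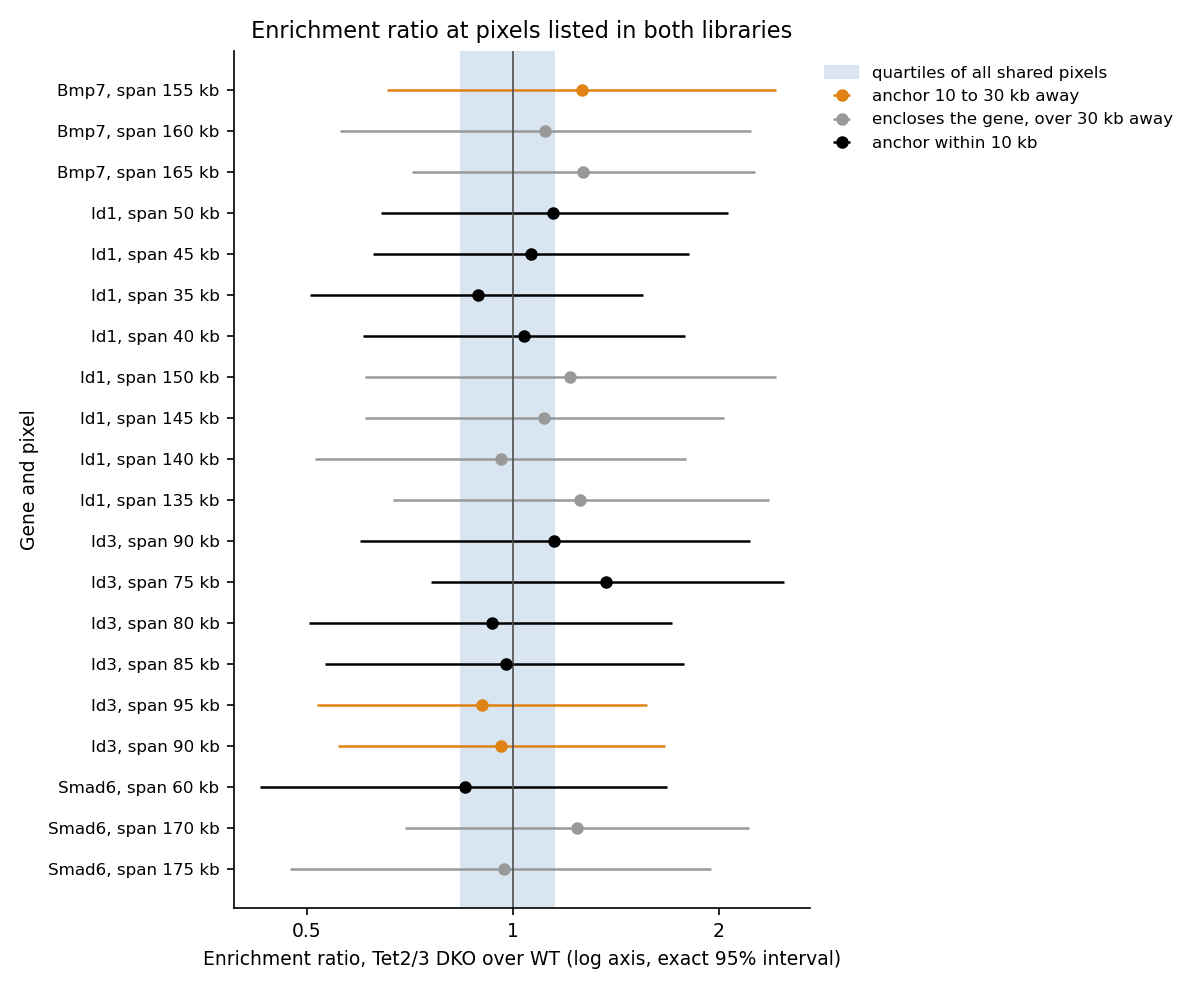
Ratio of enrichment, DKO over WT, on a log axis for each pixel near these genes that both lists hold, with exact 95% intervals and the quartiles of all shared pixels shaded. Black points have an anchor within 10 kb, orange ones at 10 to 30 kb, and grey ones enclose the gene, and every interval shown includes 1.

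Compared with all listed pixels, those at the genes had shorter median spans and lower median enrichment. Their median span was 55 kb in DKO and 65 kb in WT, against 100 kb and 115 kb over all pixels of the DKO and WT lists. Median enrichment was 3.64 in DKO and 4.11 in WT, against 4.95 and 5.11 over all pixels. Observed counts were the higher ones, with a median of 23 in both lists against 18 over all pixels, and so were expected counts, with 6.26 in DKO and 6.32 in WT against 3.72 and 3.63. In each list 10 of the 13 pixels belonged to the loops at Id1 and Id3, so these medians mostly describe neighbouring pixels of those loops. At the pixel with the most contacts in each loop, enrichment ran from 2.67 to 5.11 in DKO and from 2.88 to 6.73 in WT. The spans there were 35 to 90 kb in DKO and 35 to 465 kb in WT, on both sides of the WT median. Of the 13 pixels, 6 in DKO (46.2%) and 10 in WT (76.9%) had every FDR under 0.01, against 41.3% of all DKO and 43.0% of all WT pixels. Id1 gave 2 of them in DKO and 4 in WT, and Id3 gave 4 in each list, so most were neighbouring pixels. Under that stricter limit 2 genes, Id1 and Id3, were left in the DKO list and all 4 in the WT list, so Bmpr1a in DKO and Smad6 in DKO rest on FDRs above 0.01.

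**Figure D5:**
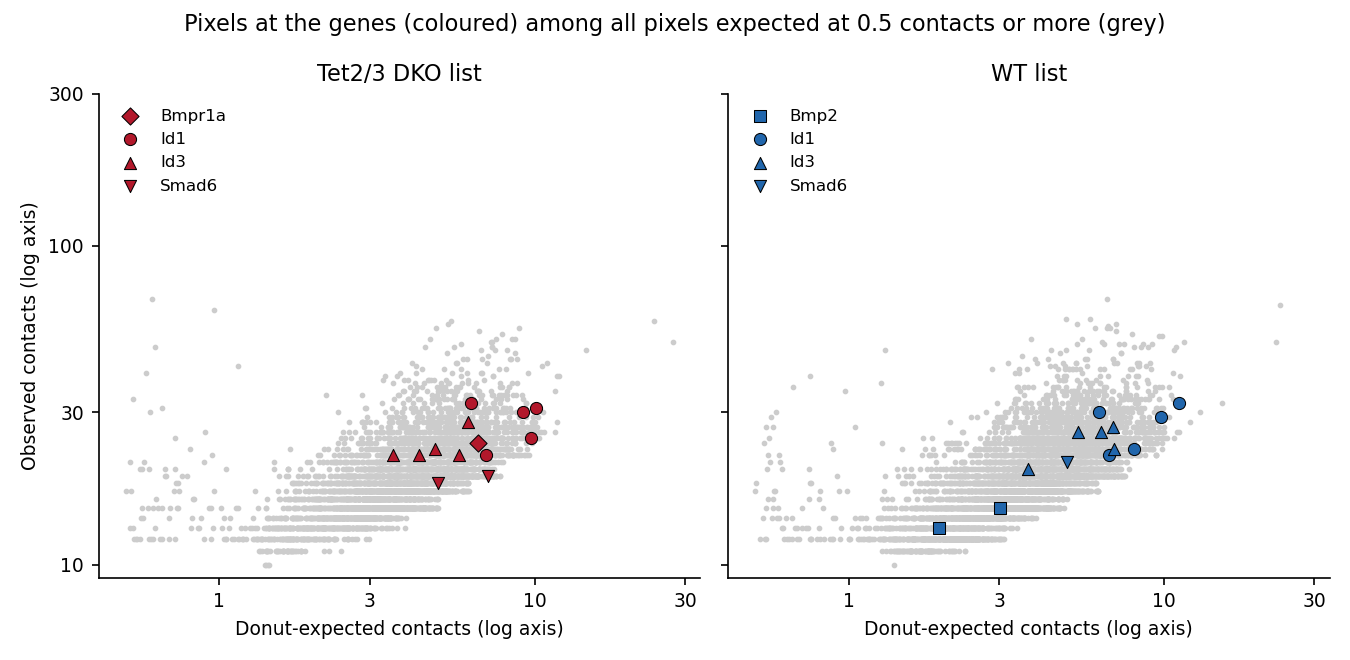
Observed against donut expected contacts on log axes in the DKO list (left) and the WT list (right), with pixels at the genes coloured over all other pixels in grey. The Id1 points lie at 6.26 to 10.1 expected contacts in DKO and 6.24 to 11.1 in WT, and the Bmp2 points of the WT list at 3.02 and 1.93.

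A partner within 10 kb of a protein-coding gene end was found for 5 of 13 pixels in DKO and 5 of 13 in WT. All of them were pixels of 1 Id1 loop in each list, at H13 or Mcts2. The same share over all listed pixels was not computed, so nothing is read from these counts. The partners of Bmp2, Bmpr1a, Id3 and Smad6 had none in either list. No listed pixel could have joined 2 of the 10 genes. Those on the same chromosome lie farther apart than the longest listed span, 3615 kb in DKO and 4360 kb in WT.

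The rest of the pathway was read from a list of 38 other BMP genes. Of these, 9 had a pixel in the DKO list and 8 in the WT list, 23.7% and 21.1%, close to the 20.1% and 21.2% of all genes. Targets had the highest share, with Msx1, Msx2 and Atoh8 in both lists out of 5, while the receptors had 0 of 7 in DKO and 1 of 7 in WT, Acvr1. Of 9 genes listed as ligands 3 had a pixel in each list, Bmp1 among them, of 10 extracellular inhibitors and modulators 2 in DKO and 1 in WT, and of 7 SMADs and ligases 1 in DKO, Smad3, and 0 in WT.

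Noggin, a secreted inhibitor that binds BMP ligands, is encoded by Nog, which had 3 pixels in DKO and 4 in WT over 130 to 145 kb. The highest had 20 contacts in DKO and 23 in WT, at 5.81 (3.55 to 8.98) and 6.27 (3.98 to 9.41) times expected. Twsg1, a modulator that binds BMPs together with chordin, had 3 pixels in DKO and 0 in WT. Acvr1, a type I receptor gene, had 0 in DKO and 2 in WT, the highest with 18 contacts at 3.28 times expected (1.94 to 5.19). These single-list genes have no replicate check either.

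Atoh8, a helix-loop-helix target, had 5 pixels in each list and the highest count among these genes, 51 in DKO and 49 in WT at 5.88 (4.38 to 7.73) and 5.36 (3.97 to 7.09) times expected. Bmp1 also had 5 in each, at 4.77 (2.99 to 7.22) in DKO and 5.11 (3.34 to 7.49) in WT for the highest, and it encodes a procollagen protease that cleaves chordin and not a BMP-type ligand. Msx2, a homeobox gene of the matrix, had 4 pixels in DKO and 5 in WT, and Msx1 had 1 in DKO and 2 in WT with the same 270 kb contact in both, 15 contacts in DKO and 17 in WT. Gdf5, a BMP-type ligand gene, had 1 pixel in DKO, which the WT list also held, and 6 in WT over 95 to 105 kb. The highest of each list were different pixels with overlapping intervals. They had 20 contacts in DKO at 4.96 (3.03 to 7.65) times expected and 28 in WT at 6.08 (4.04 to 8.78). Both partner bins lay within 10 kb of an end of Uqcc1, and so did the Gdf5-side bin of the WT pixel.

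Contacts do not measure transcripts, so the labelled cell type could not be checked against its markers. Of 9 matrix and hair keratinocyte genes 5 had a pixel in DKO and 4 in WT, and of 5 dermal papilla and fibroblast genes 2 in DKO and 3 in WT. Of 4 melanocyte genes 0 had one in DKO and 2 in WT, and of 4 immune and endothelial genes 1 in DKO and 2 in WT. Over all protein-coding genes the shares were 20.1% in DKO and 21.2% in WT. For the DKO list alone the share was 7.14%, and for the WT list alone 8.24%. With 4 to 9 genes in a group, these counts tell nothing of cell content or genotype. Sequencing depth was not given in the sources used here. Over the 1940 shared pixels the median DKO/WT ratio of donut expected counts was 0.973. It stands in below as the depth ratio, although it covers only pixels that both lists held.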

How the data were processed

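Hi-C (Arima enzymes, per the labels' protocols) was run on hair matrix keratinocytes with 1 library per genotype, DKO and WT. The lists come from juicer_tools 1.22.01, per the file headers. Juicer and GRCm38 (mm10) are named per the submitters' processing notes. Aligner, read filters and depth: not given in the sources used here. For each pixel of 5 kb bins the authors deposited an observed contact count, 4 expected values, a signal in the same scale (bottom-left, donut, horizontal, vertical), a score giving the bin of expected counts the caller used, and 4 q-values (FDRs), all under 0.1 as deposited.

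Pixels were assigned to genes in Python 3.11.15 with pandas 2.3.3 and SciPy 1.17.1, using gene ends of RefSeq GRCm38.p6 and 1-based coordinates. Enrichment is observed over donut expected. Loops were linked within 20 kb at both anchors and matched within 2 bins. Intervals are exact 95% intervals, Poisson for enrichment and conditional binomial for ratios, and cover counting error only. With 1 library per genotype nothing was tested. Placement, linkage and intervals were tested on simulated data. All 10 genes were described. Partner genes were named for the nearest ends within 10 kb, and other pathway genes were up to 8 with the most pixels. Members and lists were chosen with earlier results of these data known. Promoters came from RefSeq. Alternatives were other reaches, FDR and count minimums, linkage, matching and expected counts.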

Additional observations from a re-analysis of the deposited data

How the results depend on the processing

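No paired analysis was possible because DKO and WT have 1 library each and nothing was tested, so no replicate could be left out either. Of 70 recomputed values, 66 moved by no more than their counting interval (counts of genes or pixels by at most 1.5 times) and 4 moved by more. With an FDR under 0.01 in all 4 neighbourhoods, 2 genes (Id1 and Id3) in place of 4 kept a pixel in the DKO list, and 6 pixels in place of 13. The WT list kept Bmp2, Id1, Id3 and Smad6 under that setting. With the gene end inside the anchor bin, 3 pixels in DKO and 6 in WT were left of 13 each, and Smad6 had none in either list. The causes were not tested. A reach of 20 kb added Smad1 in the WT list. With at least 20 contacts Smad6 was left out of the DKO list and Bmp2 out of the WT list. All 18 recomputed DKO/WT ratios stayed inside their intervals, from 0.803 to 1.34 with the depth ratio and from 0.869 to 1.19 with the largest expected count. They crossed 1 at 0 of 9 pixels with the depth ratio and at 6 of 9 with the largest expected count. Counts of 13 to 32 contacts per pixel at these genes limit what a comparison of 2 libraries can resolve.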
